A study of Rattus norvegicus with 16 samples.

Results

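Maturation of normotensive mesenteric arteries was described from the arrays of Wistar Kyoto (WKY) rats, by comparing 5 months with 6 weeks of age. The members were the 5 WKY pools whose arrays passed quality control, out of 16 arrays in the whole series, and they were chosen by the age and strain in their labels. At 6 weeks there were 3 pools, WKY/NTac, WKY/NCrL and WKY/NHsd, and at 5 months there were 2, WKY/NCrL and WKY/NTac. The WKY/NHsd array of 5 months failed quality control and stayed out of the comparison. Sublines are colonies of 1 strain that were kept by different breeders, so the ages differed in their subline composition. Every pool held small mesenteric artery branches of several male rats. Surrounding fat and blood had been removed, and the inner and outer layers of the wall were kept. No WKY rat was treated or genetically altered. The other strain of the study was the spontaneously hypertensive rat (SHR), with 3 pools at 6 weeks and 2 pools at 5 months, on 5 and 4 arrays. At 6 weeks these were SHR/NCrL, SHR/NHsd and SHR/SP, the stroke-prone line, and at 5 months SHR/NCrL and SHR/SP, since the SHR/NHsd array of that age failed quality control. The study sampled 6 weeks as a stage before hypertension and 5 months as a stage of established hypertension, and WKY gave the normal course between them.

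On each array the Cy3 channel held 1 pool and the Cy5 channel a reference mixed from all samples, so each value is the log2 ratio of a pool to that reference. A value of 0 is the level of the mixture, and only differences between pools of the same probe were read. Of all spots, 66.0 to 69.3% were well above background in the 5 WKY pools, and no spot was saturated. Each pool stands on 1 array, so the spread between pools holds animals, subline and array together. Markers of the labelled tissue were present in all 5 pools: 7 of 7 smooth muscle markers and 9 of 9 endothelial markers were well above background on each array.

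Arteries grow in length and calibre from weaning to adulthood. Smooth muscle cells and fibroblasts of a growing wall divide and lay down collagen and elastin, and elastin synthesis in large and small arteries is largely limited to early life. In the adult wall cell division is rare and matrix turnover is slow, and resident immune cells survey the adventitia. The results below follow these roles: cell division, matrix, chemokines and other secreted factors, then contraction and metabolism.

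The falls with age held many genes of mitosis, so the promoters of 4 of them are shown, as windows from 250 bases before to 50 bases after the annotated start in the RefSeq table of build GRCr8. Capitals mark the letters CCAAT and TTTGAA on either strand, the sequences known as the CCAAT box and the cell cycle homology region. The 4 are examples that all hold TTTGAA, so they do not stand for every mitosis gene. The window of Cdca3, another called fall, held 3 CCAAT and 0 TTTGAA matches and is not printed. Kif22 is not in the list of mitosis genes counted below.

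Prc1, chr1:143659231-143659530, plus strand: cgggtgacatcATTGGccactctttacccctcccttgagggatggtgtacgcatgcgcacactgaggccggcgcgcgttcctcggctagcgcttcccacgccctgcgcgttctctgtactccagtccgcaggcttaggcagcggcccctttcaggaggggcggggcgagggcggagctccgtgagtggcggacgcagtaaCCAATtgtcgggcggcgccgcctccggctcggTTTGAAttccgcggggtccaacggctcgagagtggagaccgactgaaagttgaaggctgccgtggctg
Kif22, chr1:191080829-191081128, minus strand: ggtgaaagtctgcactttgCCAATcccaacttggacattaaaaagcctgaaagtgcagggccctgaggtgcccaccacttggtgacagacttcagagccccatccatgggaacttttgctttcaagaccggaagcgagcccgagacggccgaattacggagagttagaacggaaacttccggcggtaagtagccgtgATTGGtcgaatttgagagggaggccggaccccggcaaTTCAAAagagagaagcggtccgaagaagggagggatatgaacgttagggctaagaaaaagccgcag
Nusap1, chr3:127057045-127057344, plus strand: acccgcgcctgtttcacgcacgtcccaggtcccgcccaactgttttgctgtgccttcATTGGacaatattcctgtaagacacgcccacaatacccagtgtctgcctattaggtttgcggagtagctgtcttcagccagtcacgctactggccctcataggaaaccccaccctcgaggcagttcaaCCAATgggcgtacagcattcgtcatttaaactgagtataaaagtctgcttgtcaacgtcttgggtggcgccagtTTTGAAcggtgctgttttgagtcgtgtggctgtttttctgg
Knstrn, chr3:126254446-126254745, plus strand: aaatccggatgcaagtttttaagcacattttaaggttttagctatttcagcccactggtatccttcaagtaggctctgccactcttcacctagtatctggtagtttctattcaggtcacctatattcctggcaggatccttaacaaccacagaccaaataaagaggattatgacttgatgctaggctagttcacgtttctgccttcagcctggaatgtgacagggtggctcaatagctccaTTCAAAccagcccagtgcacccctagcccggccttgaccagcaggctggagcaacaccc

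Of the 30 mitosis genes measured, 25 had a window in that table. TTTGAA was found in 18 of 25 (72%), against 18.1% of all 27457 genes with a window. CCAAT was found in 19 of 25 (76%), against 37.7% of all. Both were found in 15 of 25 (60%), against 7.25% of all. In 8 fibrillar collagen genes, of which 5 had a window, TTTGAA was found in 0 of 5 and CCAAT in 3 of 5. Of 22 windows of DNA replication genes, 2 held TTTGAA and 14 held CCAAT. In all 11 short motifs were searched on both strands. Besides these they were the variant TTCGAA of the homology region, the E2F-type motifs TTTGGCGC with TTTCCCGC as well as the longer TTTGGCGGG, the TATA box TATAAA, the GC box as GGGCGG or in the order CCCGCC, the E-box CACGTG and the palindrome GAATTC. Matches of different motifs can share letters, since TTTGGCGGG holds CCCGCC on the other strand and CCAAT can run into TTTGAA. The matches are a description of the letters only.

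In WKY arteries 55 of 30367 probes (0.181%) differed between the ages at an adjusted p under 0.05 by limma, and falls outnumbered rises. At 5 months 45 probes (0.148%) were lower and 10 (0.0329%) were higher. Their named part held 42 probes of 38 genes, and 13 called probes had no gene name here and are only counted. At an unadjusted p under 0.05 there were 1974 probes (6.5%). For all 55 probes every 5-month pool lay on 1 side of every 6-week pool, as for 21.3% of all probes (11.1% lower and 10.2% higher at 5 months). This separation fixes the direction within WKY/NCrL, within WKY/NTac and within each of the 2 array slides. The same direction there for 55 of 55 probes is therefore no further evidence. Over all probes, 50.6% had the same sign within both sublines. The spread in this fit came from the arrays of both strains: with only the WKY arrays in the fit no probe was called and 1689 had an unadjusted p under 0.05. With the subline as a block, 1 probe was called, that of Cxcl14.

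**Figure D1:**
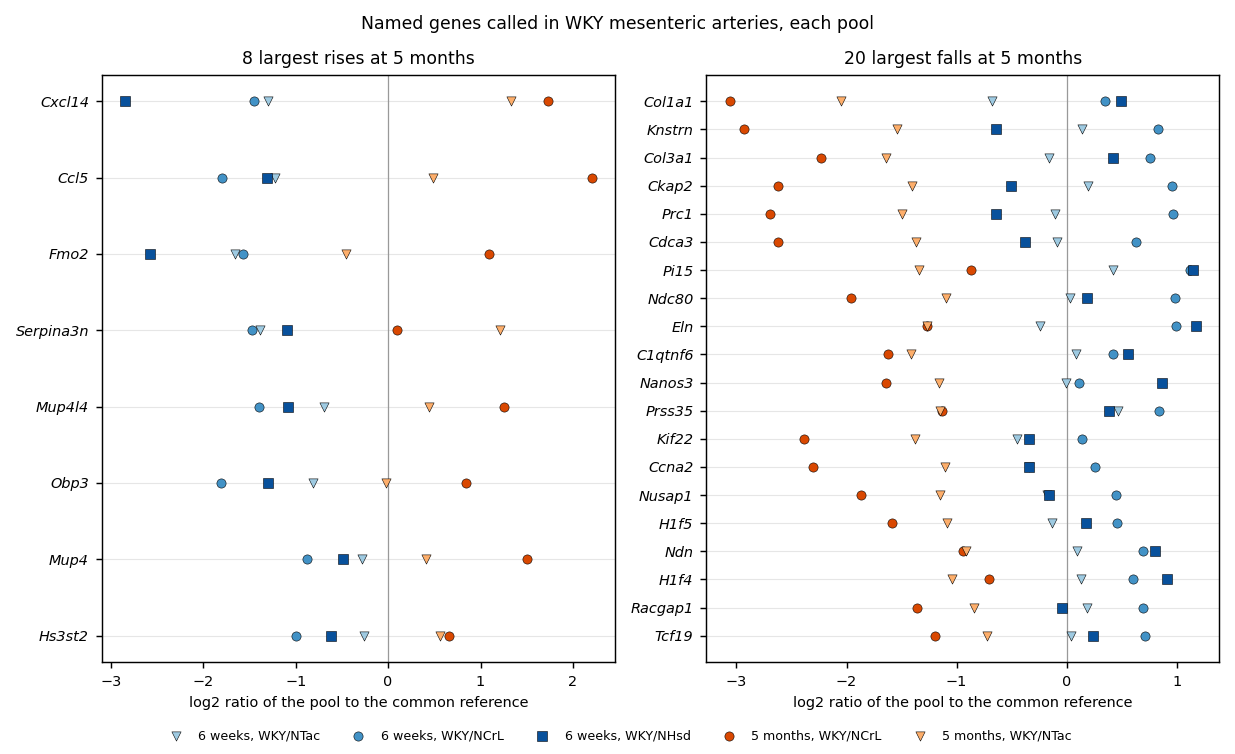
Log2 ratio of each pool to the common reference (x axis) for the named genes that differed between the ages in WKY, with the 8 largest rises on the left and the 20 largest falls on the right; blue symbols are the 3 pools of 6 weeks and orange symbols the 2 pools of 5 months. The ages are separate for every gene shown, as for all 55 called probes. For most falls the 5-month WKY/NCrL pool lies further from the 6-week pools than the 5-month WKY/NTac pool does.

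Cell division genes were lower at 5 months as a group. All 30 mitosis genes measured had a change below 0, with a median of -1.34 on the log2 scale, against 50.8% of all probes below 0 and a median of -0.00 over all probes. Of the 30, 6 fell at an adjusted p under 0.05 (20%, against 0.148% of all probes), namely Knstrn, Prc1, Cdca3, Ndc80, Nusap1 and Racgap1. The pools of the ages did not overlap for 26 of 30, against 11.1% of all probes that were lower without overlap. The fall was unequal between the sublines: the median change was -2.15 within WKY/NCrL, where 30 of 30 genes were lower (49.6% of all probes), and -0.57 within WKY/NTac, where 27 of 30 were lower (51% of all probes). The list medians of the pools show where this came from, at -0.09 (WKY/NTac), 0.66 (WKY/NCrL) and -0.17 (WKY/NHsd) at 6 weeks and at -1.51 (WKY/NCrL) and -0.85 (WKY/NTac) at 5 months. WKY/NCrL thus held both the highest and the lowest pool. In bulk RNA of a vessel, fewer cells of a type and less RNA per cell cannot be told apart.

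Several of the called genes act on the spindle. Prc1, which bundles microtubules at the spindle midzone, stood at -0.10 (WKY/NTac), 0.97 (WKY/NCrL) and -0.64 (WKY/NHsd) at 6 weeks and at -2.70 (WKY/NCrL) and -1.50 (WKY/NTac) at 5 months. It fell by 2.17 ± 0.38 (SE, limma adjusted p = 0.0329), and its other probe fell by 1.60 (adjusted p = 0.0329). Both probes match the gene whose promoter is printed above with 2 CCAAT matches and 1 TTTGAA match. Ndc80, a part of the kinetochore that holds microtubules, was at 0.03, 0.98 and 0.19 in the 6-week pools and at -1.96 and -1.09 in the 5-month pools, in the same order of sublines. Its fall was 3.80-fold (log2 change -1.93 ± 0.28, adjusted p = 0.00856), and no 5-month pool came within 1 log2 unit of a 6-week pool. Knstrn, a spindle protein, had 0.14, 0.83 and -0.64 at 6 weeks and -2.93 and -1.54 at 5 months, a change of -2.35 ± 0.43 (adjusted p = 0.0456). Nusap1, which binds spindle microtubules, had -0.17, 0.45 and -0.16 at 6 weeks and -1.87 and -1.15 at 5 months, a change of -1.55 ± 0.26 (adjusted p = 0.0241). In these genes the 6-week WKY/NCrL pool was the highest of the 5 and the 5-month WKY/NCrL pool the lowest.

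Further called genes of division took other roles. Ckap2, a microtubule-associated protein of dividing cells, stood at 0.20, 0.95 and -0.50 at 6 weeks and at -2.63 and -1.41 at 5 months, and it fell by 2.23 ± 0.38 (adjusted p = 0.0296), with a second probe at -2.08 (adjusted p = 0.0475). Cdca3, which takes part in entry into mitosis, had -0.09, 0.63 and -0.38 at 6 weeks and -2.62 and -1.37 at 5 months, a change of -2.05 ± 0.38 (adjusted p = 0.0469). Kif22, a kinesin that binds chromosome arms, had -0.45, 0.14 and -0.34 at 6 weeks and -2.39 and -1.37 at 5 months, a change of -1.67 ± 0.28 (adjusted p = 0.0242). The pools of these genes did not overlap between the ages, as for all 55 called probes and 21.3% of all probes. Racgap1, a part of the complex that prepares cytokinesis, had 0.18, 0.69 and -0.04 at 6 weeks and -1.36 and -0.84 at 5 months, a change of -1.38 ± 0.22 (adjusted p = 0.0209). Ccna2, the cyclin of S phase and G2, was called on a probe with -0.34, 0.26 and -0.34 at 6 weeks and -2.30 and -1.11 at 5 months, a change of -1.57 ± 0.29 (adjusted p = 0.0469). Its brighter probe had a change of -2.18 and an adjusted p of 0.0501. Tcf19, a nuclear factor expressed late in G1, had 0.04, 0.71 and 0.24 at 6 weeks and -1.19 and -0.72 at 5 months, a change of -1.29 ± 0.24 (adjusted p = 0.0475).

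Linker histones, which are made mainly in S phase, were lower too. H1f5 had -0.13, 0.46 and 0.18 at 6 weeks and -1.58 and -1.09 at 5 months, a change of -1.51 ± 0.21 (adjusted p = 0.00822). H1f4 had 0.13, 0.61 and 0.91 at 6 weeks and -0.70 and -1.04 at 5 months, a change of -1.42 ± 0.25 (adjusted p = 0.0322). The DNA replication list moved less than the mitosis list: 28 of 28 genes had a change below 0, the median was -0.37, and 0 passed the test. Its median was -0.71 within WKY/NCrL and -0.07 within WKY/NTac, where 16 of 28 genes were lower.

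**Figure D2:**
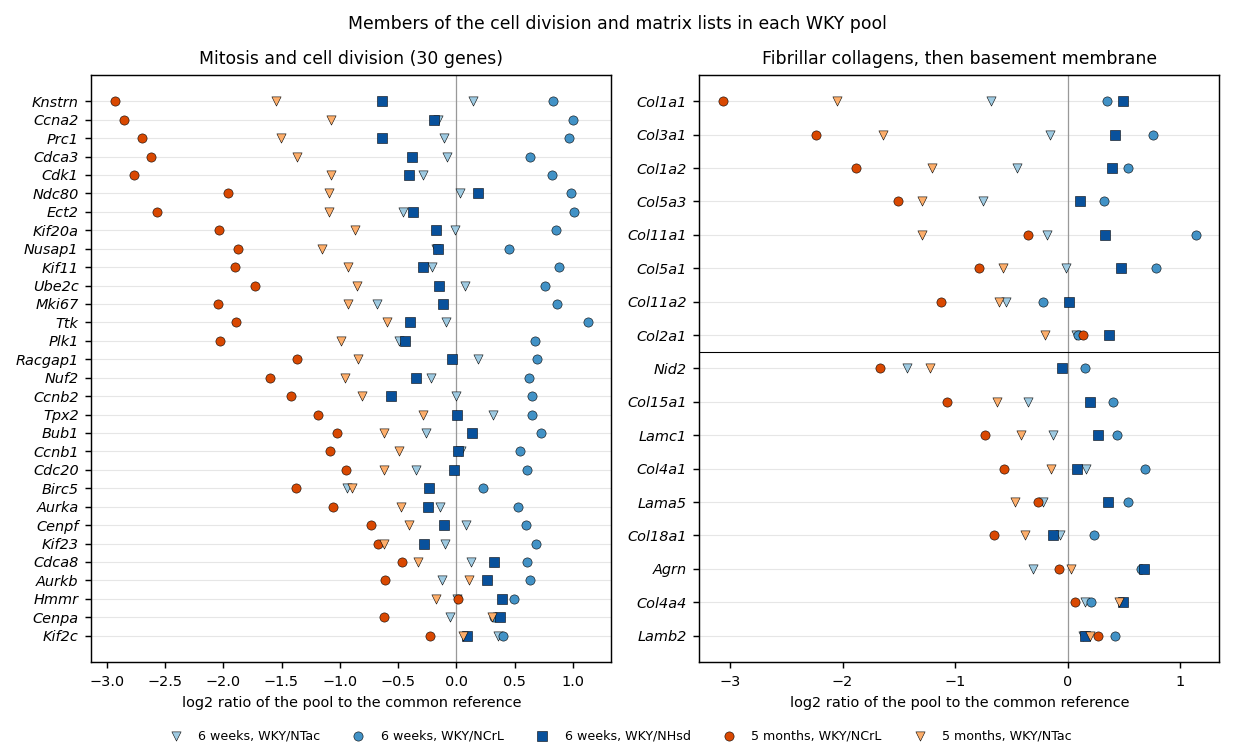
Log2 ratio of each WKY pool to the common reference (x axis) for the 30 mitosis and cell division genes (left) and for 8 fibrillar collagen and 9 basement membrane genes (right, split by the line), each gene by its brightest probe. The 5-month pools lie to the left of the 6-week pools in 26 of 30 mitosis genes and in 7 of 8 fibrillar collagens, against 11.1% of all probes. The 6-week WKY/NTac pool is the lowest 6-week pool in 12 mitosis genes and in 8 fibrillar collagens, against 34.5% of all probes.

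Fibrillar collagens formed the other large fall. All 8 measured genes had a change below 0 (50.8% of all probes), with a median of -1.27. The list median was -1.70 within WKY/NCrL and -0.66 within WKY/NTac. Of the 8 genes, 2, Col1a1 and Col3a1, fell at an adjusted p under 0.05 (0.148% of all probes). Col1a1, a chain of collagen I, stood at -0.68 (WKY/NTac), 0.35 (WKY/NCrL) and 0.49 (WKY/NHsd) at 6 weeks and at -3.06 (WKY/NCrL) and -2.05 (WKY/NTac) at 5 months. It had the largest fall of all called probes, 6.10-fold (log2 change -2.61 ± 0.39, adjusted p = 0.00964), and its other probe fell by 1.67 (adjusted p = 0.0447). Col3a1, the chain of collagen III, had -0.16, 0.76 and 0.42 at 6 weeks and -2.23 and -1.65 at 5 months, a fall of 4.86-fold (log2 change -2.28 ± 0.31, adjusted p = 0.00584). In both genes the 6-week WKY/NTac pool was the lowest of its age and still lay above both 5-month pools. Col1a2, the partner chain of Col1a1, had a change of -1.70 that missed the threshold (adjusted p = 0.0675). Col5a3 had -0.75, 0.32 and 0.11 at 6 weeks and -1.50 and -1.30 at 5 months (change -1.29, adjusted p = 0.371).

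Elastin fell on 1 of its probes. Eln, the gene of elastin, was called on a probe with -0.24, 1.00 and 1.18 at 6 weeks and -1.27 and -1.27 at 5 months, a change of -1.92 ± 0.31 (adjusted p = 0.0189). Its brighter probe had a change of -1.66 (adjusted p = 0.0721). The 5-month pools agreed closely and the spread lay between the 6-week pools. Of the 15 elastic fibre genes by their brightest probe, 11 had a change below 0, with a median of -0.21, and 0 passed the test. The list median was -0.51 within WKY/NCrL and 0.03 within WKY/NTac, where 7 of 15 genes were lower (51% of all probes). Fbn2, the fibrillin of growing tissue, had -1.11, 0.40 and -0.28 at 6 weeks and -2.29 and -1.65 at 5 months, with an adjusted p of 0.358. Sparc, a collagen-binding secreted protein, fell by 0.94 ± 0.16 (adjusted p = 0.0241), from pools of -0.23, 0.17 and -0.07 to pools of -1.10 and -0.86. It was the only called gene among 20 proteoglycans and matricellular proteins, a list with a median of 0.10. In that list Postn, the gene of periostin, had -1.18, 0.16 and -0.32 at 6 weeks and -2.68 and -1.45 at 5 months, a change of -1.62 with an adjusted p of 0.467. The secreted phosphoprotein Spp1 lay on the other side, with a change of 1.13 and an adjusted p of 0.922. Thbs1, thrombospondin 1, was well above background in no 6-week pool and in both 5-month pools, and its adjusted p was 0.728.

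The other matrix lists had smaller medians. Of 9 basement membrane genes, 8 had a change below 0 (median -0.59) and 0 passed by their brightest probe. The list median was -0.89 within WKY/NCrL and -0.24 within WKY/NTac, where 5 of 9 genes were lower (51% of all probes). Col4a1, a chain of collagen IV, fell on its second probe by 1.24 ± 0.16 (adjusted p = 0.00390), with 0.49, 0.54 and 0.56 at 6 weeks and -0.89 and -0.52 at 5 months, while its brightest probe had a change of -0.67 and an adjusted p of 0.418. Both probes pointed down. Col15a1, Lamc1 and Lama5 had changes of -0.93, -0.77 and -0.59, with adjusted p of 0.163, 0.237 and 0.571. Of 4 other interstitial collagens, Col14a1, Col8a1 and Col6a2 had changes of -0.61, -0.59 and -0.42 and Col7a1 had 0.25, and 0 passed (median -0.50). Of the 18 genes that modify and crosslink collagen, 15 had a change below 0 (median -0.32) and 0 passed. Ppic, a prolyl isomerase of the secretory pathway that is not in that list, fell by 0.91 ± 0.13 (adjusted p = 0.00895), and Kdelr3, a receptor that returns proteins to the endoplasmic reticulum, fell by 0.92 ± 0.17 (adjusted p = 0.0460).

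Secreted and surface proteins outside these lists held some of the smallest adjusted p of the falls. C1qtnf6, a secreted protein with a C1q domain, had 0.09, 0.42 and 0.56 at 6 weeks and -1.62 and -1.41 at 5 months, a change of -1.87 ± 0.17 and the smallest adjusted p of all probes (0.000488). Its other probe fell by 0.88 (adjusted p = 0.0381). Pi15, a secreted protease inhibitor, had 0.42, 1.12 and 1.15 at 6 weeks and -0.87 and -1.34 at 5 months, a 4.01-fold fall (limma adjusted p = 0.00172). In both genes the ages were more than 1 log2 unit apart at their nearest pools. Prss35, a secreted protease-like protein, had 0.47, 0.84 and 0.38 at 6 weeks and -1.13 and -1.15 at 5 months, a change of -1.71 ± 0.23 (adjusted p = 0.00584). The RNA-binding protein Nanos3, known from germ cells, had -0.00, 0.11 and 0.87 at 6 weeks and -1.64 and -1.16 at 5 months, a change of -1.73 ± 0.22 (adjusted p = 0.00316). Other named falls lay between -0.95 and -1.23: the membrane protein Itm2a (-1.23), the metalloprotease Adamts12 (-1.10), the RNA-binding protein Mex3b (-0.98) and the secreted Kazald1 (-0.95), with adjusted p from 0.00880 to 0.0329.

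Imprinted genes of growth were looked at as a list because several decline after birth. Ndn, the gene of necdin, a growth suppressor expressed from the paternal allele, had 0.10, 0.69 and 0.80 at 6 weeks and -0.95 and -0.92 at 5 months, a change of -1.46 ± 0.18 (adjusted p = 0.00312). It was the only one of 16 imprinted genes to pass, and the list had 11 changes below 0 and a median of -0.15. Zim1 had -0.56, 0.12 and 0.19 at 6 weeks and -0.77 and -0.92 at 5 months, with an adjusted p of 0.272. H19, a long noncoding RNA, separated the 6-week pools more than the ages, with -2.32 in WKY/NTac, 0.97 in WKY/NCrL and -0.03 in WKY/NHsd against -1.66 and -2.34 at 5 months (adjusted p = 0.734).

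Rises were fewer, and chemokines led them. Cxcl14, a chemokine of skin and mucosa that acts on monocyte-lineage cells, stood at -1.30 (WKY/NTac), -1.45 (WKY/NCrL) and -2.85 (WKY/NHsd) at 6 weeks and at 1.73 (WKY/NCrL) and 1.33 (WKY/NTac) at 5 months. It had the largest change of all called probes, 10.5-fold (log2 change 3.40 ± 0.41, adjusted p = 0.00312), and the nearest pools of the ages were more than 2 log2 units apart. Ccl5, a chemokine that attracts T cells and monocytes, had -1.22, -1.80 and -1.31 at 6 weeks and 2.20 and 0.49 at 5 months, a rise of 6.92-fold (log2 change 2.79 ± 0.40, adjusted p = 0.00856). Of 29 chemokine ligands and receptors measured, 23 had a change above 0, the median was 0.40, and Cxcl14 and Ccl5 were the 2 that passed (0.0329% of all probes were called higher). The list median was 0.15 within WKY/NCrL, where 18 of 29 genes were higher, and 0.62 within WKY/NTac, where 27 were. By pool it was -0.19 (WKY/NTac), -0.38 (WKY/NCrL) and 0.05 (WKY/NHsd) at 6 weeks. At 5 months it was -0.09 (WKY/NCrL) and 0.49 (WKY/NTac), so the list medians of the ages overlapped. Cxcl10, a ligand induced by interferon, had -0.50, -1.10 and -0.66 at 6 weeks and 1.51 and 0.03 at 5 months, and Cxcl12, a ligand made by stromal cells, had -0.01, -0.33 and -0.91 against 0.47 and 0.69, with adjusted p of 0.271 and 0.260. Single pools carried other members: Ccl2 was at -2.16 in the 5-month WKY/NCrL pool and at 1.49 in the 5-month WKY/NTac pool.

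Cells that make or answer chemokines were measured in the same pools. Of 12 T and NK cell markers, 11 had a change above 0 with a median of 0.33 and 0 passed; 3 of the 12, Nkg7, Cd3d and Cd4, were well above background in all 5 pools, and 3 were above it in none. The list median was 0.01, -0.19 and 0.02 in the 6-week pools and 0.40 (WKY/NCrL) and 0.17 (WKY/NTac) at 5 months. Macrophage markers had a list median of -0.47 at 6 weeks and -0.61 at 5 months in WKY/NCrL, of -0.01 and 0.43 in WKY/NTac, and of 0.03 in WKY/NHsd at 6 weeks, so WKY/NCrL was the lower subline at both ages. The part of these cells in the chemokine rise was not tested.

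Secreted proteins of the acute phase and of pheromone transport made up most other rises. Serpina3n, a serine protease inhibitor of the acute phase, had -1.38, -1.47 and -1.10 at 6 weeks and 0.10 and 1.22 at 5 months, a rise of 3.92-fold (log2 change 1.97 ± 0.27, adjusted p = 0.00584). Hs3st2, an enzyme that sulphates heparan sulphate, had -0.26, -0.99 and -0.61 at 6 weeks and 0.66 and 0.56 at 5 months, a change of 1.23 ± 0.20 (adjusted p = 0.0233).

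The major urinary proteins, small carriers of pheromones that liver and glands of male rats secrete, rose as well. Mup4l4 had -0.70, -1.39 and -1.09 at 6 weeks and 1.26 and 0.44 at 5 months, a change of 1.91 ± 0.24 (adjusted p = 0.00316). Obp3 had -0.82, -1.81 and -1.30 at 6 weeks and 0.84 and -0.02 at 5 months, a change of 1.72 ± 0.26 (adjusted p = 0.0132). Both were well above background in 1 of 3 pools at 6 weeks and in 2 of 2 at 5 months. Mup4 had -0.28, -0.88 and -0.49 at 6 weeks and lay above all of these at 5 months (0.41 in WKY/NTac and higher in WKY/NCrL), a rise of 2.83-fold by the log ratios (adjusted p = 0.0376). It was well above background in no 6-week pool, where its signal is only a bound. On the loess and Aquantile normalised test channel the rise was at least 3.05-fold, against the higher of its own signal and the lowest signal above background, so its size depends on the scale and the log ratio is the smaller estimate. These genes belong to a family of near-identical copies, and which copy each probe measures is uncertain.

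Fmo2, a flavin monooxygenase of xenobiotic metabolism, was called on a probe with -1.65, -1.57 and -2.58 at 6 weeks and 1.09 and -0.45 at 5 months, a change of 2.26 ± 0.36 (adjusted p = 0.0189). Its brighter probe had a change of 1.41 and an adjusted p of 0.0744. Of the 30 genes of xenobiotic and oxidative defence, 26 had a change above 0, the median was 0.31, and 0 passed by their brightest probe. The list was above 0 within both sublines, with medians of 0.37 in WKY/NCrL and 0.13 in WKY/NTac.

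Across the 38 genes, 9 had a further probe that was not called, and 9 of 9 such probes had the direction of the called probe. For the major urinary proteins this says little. The further Mup4 probe was well above background in no WKY pool. That of Mup4l4 was well above background in no 6-week pool and in 1 pool of 5 months. It overlapped between the ages (change 0.70, limma adjusted p = 0.711).

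Contractile genes gave no call, and the counts in this paragraph are with all WKY pools. Of 22 genes of smooth muscle contraction, 16 had a change above 0, the median was 0.06, and 0 passed. Of 7 smooth muscle markers, 6 had a change above 0, with a median of 0.11, and their values were close in every pool: the list median ran from -0.15 to -0.01 at 6 weeks and from 0.07 to 0.13 at 5 months. Among them Acta2, smooth muscle actin, had a change of -0.08 ± 0.21 and Myh11, smooth muscle myosin, a change of 0.01 ± 0.24. Ion channels (26 genes, median 0.05), vasoactive receptors (34 genes, median 0.02), and the nitric oxide, cyclic GMP and angiotensin genes (25 genes, median -0.08) had 0 calls, as had TGF-beta and BMP signalling (24 genes, median -0.07), Wnt (19 genes, 0.07), Notch (13 genes, 0.00), the insulin-like growth factor axis (16 genes, -0.10), glycolysis (21 genes, -0.00), oxidative phosphorylation (24 genes, -0.06), cholesterol synthesis (19 genes, -0.08), the circadian clock (15 genes, 0.01) and cytosolic ribosomal proteins (20 genes, 0.04).

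**Figure D3:**
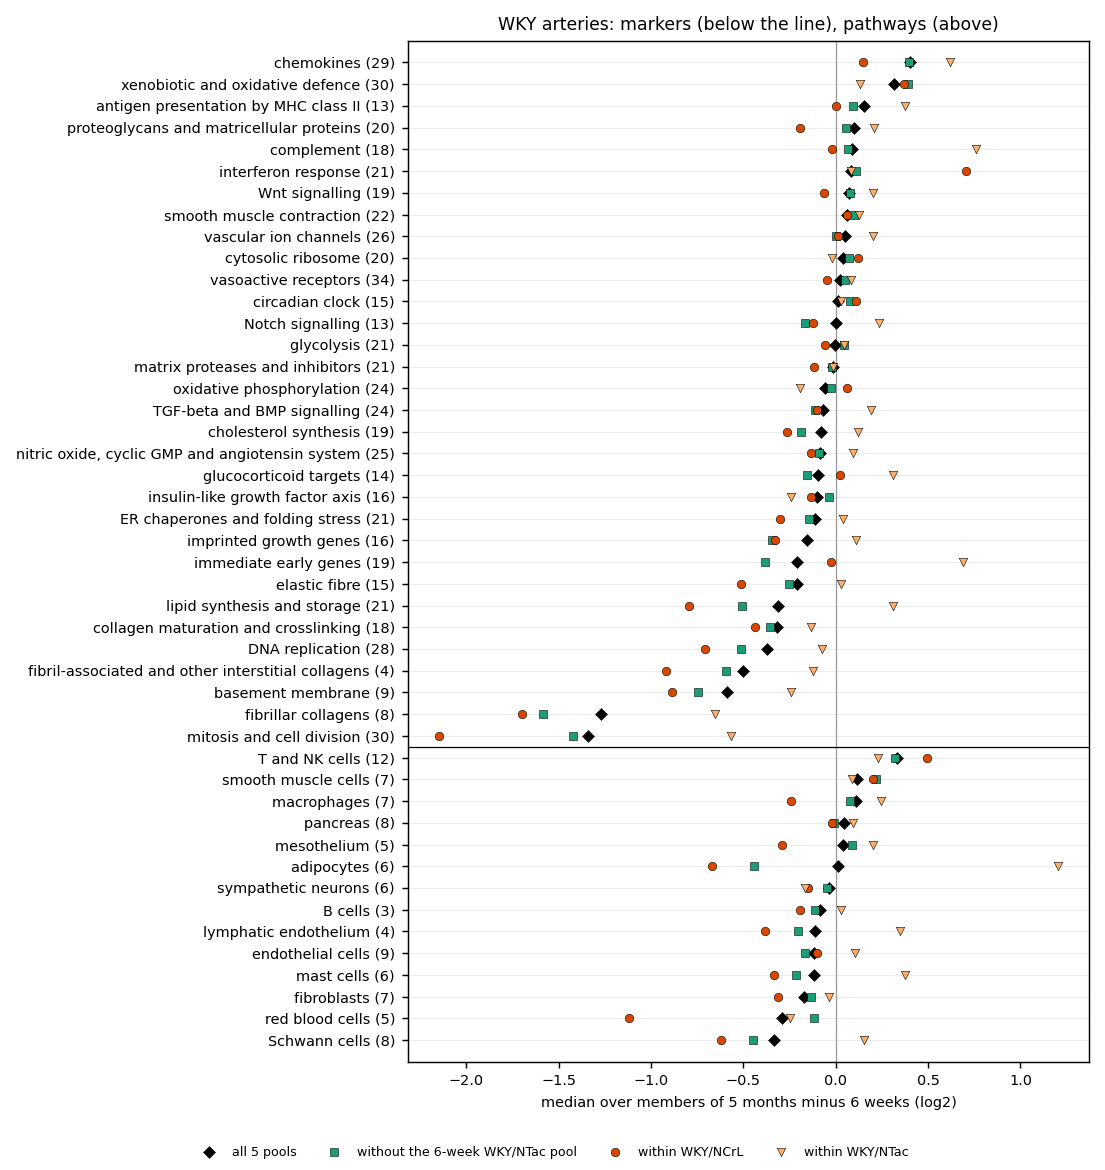
Median over the members of each gene list of the 5 months minus 6 weeks difference (log2, x axis), for all 5 pools, without the 6-week WKY/NTac pool and within the 2 sublines that have both ages; the number of genes measured stands in brackets. Mitosis and fibrillar collagens lie furthest to the left for all 4 estimates, and adipocyte markers have a median of -0.67 within WKY/NCrL and of 1.21 within WKY/NTac.

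The 6-week WKY/NTac pool stood apart from the others of its age. Over all probes its values correlated more with the 5-month pools (r = 0.375 with WKY/NCrL and 0.303 with WKY/NTac) than with those of 6 weeks. There r was 0.205 with WKY/NCrL and 0.0405 with WKY/NHsd, where all share the reference and the array design. The other 6-week pools shared this in part. WKY/NCrL of 6 weeks had r = 0.253 with 5-month WKY/NCrL and 0.12 with 5-month WKY/NTac, against 0.247 with 6-week WKY/NHsd. WKY/NHsd of 6 weeks had r = 0.209 with 5-month WKY/NTac and 0.108 with 5-month WKY/NCrL. The 6-week WKY/NTac and WKY/NCrL arrays shared a slide with the 5-month WKY/NCrL array. The 6-week WKY/NTac pool was the lowest of the 3 pools of its age for 34.5% of all probes, but for 28 of the 45 called falls. It was also the lowest for 8 of 8 fibrillar collagens, 7 of 9 basement membrane genes and 18 of 21 genes of lipid synthesis. For mitosis genes it was the lowest in 12 of 30. Markers of fat, Schwann cells and mast cells were low in it as well, while it was the lowest 6-week pool for 2 of 6 markers of sympathetic neurons: the adipocyte list median was -1.38 there, against 0.16 in WKY/NCrL and 0.46 in WKY/NHsd at 6 weeks, and it was the lowest 6-week pool for 7 of 8 Schwann cell markers and 5 of 6 mast cell markers. What sets this pool apart was not tested.

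Without this pool, 114 probes (0.375%) were called, 88 lower (0.29%) and 26 higher (0.0856%). Of the 55 probes called with it, 49 remained called. All 55 kept their direction, which was fixed in advance because their pools did not overlap between the ages. Among the 6 that were lost were Knstrn, Cdca3, Kdelr3 and 1 of 2 probes of Ckap2, with adjusted p from 0.0621 to 0.0760. The 65 probes gained held 49 falls and 16 rises, and 56 had a gene name.

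The 5 largest named falls that were gained were those of H1f1, Ccna2, Rrm2, Aspm and Mki67. Linker histone H1f1 stood at -0.63 in WKY/NTac and at 0.61 and 0.54 in the other pools of 6 weeks, against -2.21 and -1.38 at 5 months, and its change went from -1.97 (adjusted p = 0.0721) to -2.37 (adjusted p = 0.0122). The brighter Ccna2 probe went from -2.18 to -2.37 (adjusted p = 0.0422), Rrm2, a subunit of ribonucleotide reductase, from -2.02 to -2.19 (adjusted p = 0.0492), Aspm, a spindle pole protein, from -1.87 to -2.17 (adjusted p = 0.0168), and Mki67, the proliferation antigen Ki-67, from -1.82 to -2.15 (adjusted p = 0.0370). For this probe of Mki67, 1 of 3 probes of the gene that were gained, the WKY/NTac pool was at -0.76, between the other pools of its age (0.62 and -0.16) and those of 5 months (-2.61 and -1.22). By brightest probe, calls rose from 2 to 5 of 8 fibrillar collagens and from 6 to 9 of 30 mitosis genes, against 0.29% of all probes called lower. Col1a2, Col5a1 and Col11a1 were the added collagens, with changes of -2.01, -1.31 and -1.56. The brighter elastin probe was called too (-2.13, adjusted p = 0.000527). Some lists with 0 calls from all pools gained calls as well. Of the xenobiotic and oxidative defence genes 2 of 30 were called higher (0.0856% of all probes). So were 1 of 24 TGF-beta and BMP genes and 1 of 34 vasoactive receptors. Called lower were 1 of 9 basement membrane genes and 1 of 28 DNA replication genes.

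The 5 largest named rises that were gained were those of Tent5b, Cntn2, Gpnmb, Gadd45a and Tuba4a, and leaving out the pool is what selected them. Tent5b, a poly(A) polymerase, had 0.47 in WKY/NTac, -0.87 and -1.19 in the other pools of 6 weeks, and 0.49 and 1.18 at 5 months, and its change without the pool was 1.86 (adjusted p = 0.00147). Cntn2, a neural cell adhesion molecule, had 0.18 against -1.23 and -1.12 at 6 weeks and 0.34 and 0.88 at 5 months, a change of 1.78 (adjusted p = 0.00232). In both genes this pool was on the 5-month side of the others. Gpnmb, a glycoprotein of macrophages and other cells, had a change of 1.75 (adjusted p = 0.00502), Gadd45a, a gene of growth arrest, one of 1.61 (adjusted p = 0.0203), and Tuba4a, an alpha tubulin, one of 1.53 (adjusted p = 0.00263). With all pools these 5 genes had adjusted p from 0.0890 to 0.189.

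**Figure D4:**
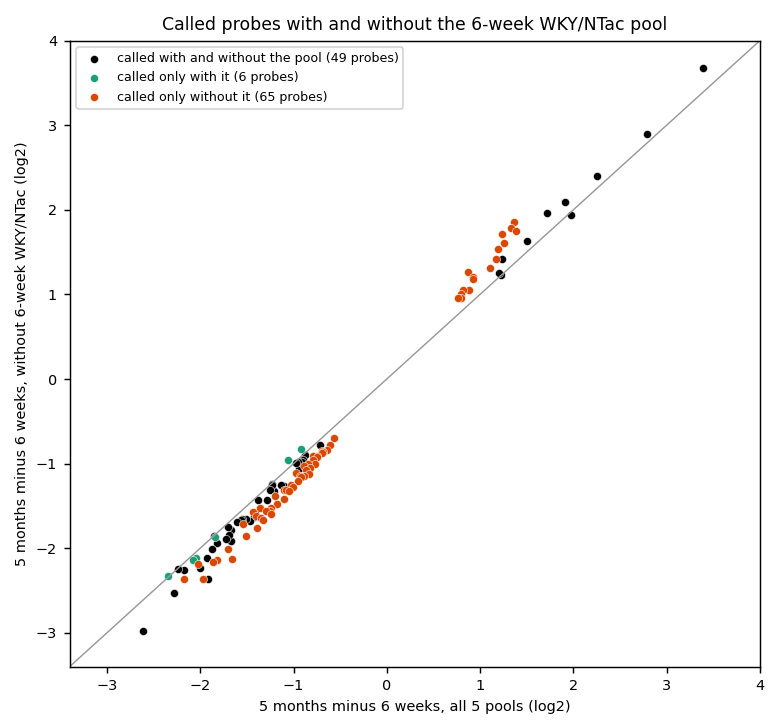
Difference between 5 months and 6 weeks (log2) with all 5 WKY pools (x axis) and without the 6-week WKY/NTac pool (y axis) for each probe called in either fit, with the line of equality. The 65 probes called only without the pool (orange) lie further from 0 on the y axis than on the x axis.

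Lipid genes differed in direction between the sublines. Of 21 genes of lipid synthesis and storage, 17 had a change below 0 and 0 passed, with a median of -0.31. The median was -0.79 within WKY/NCrL and 0.31 within WKY/NTac, so its sign depended on the subline, and it was -0.51 without the 6-week WKY/NTac pool. Elovl6, a fatty acid elongase, stood at -1.87 (WKY/NTac), 0.55 (WKY/NCrL) and -0.13 (WKY/NHsd) at 6 weeks and at -2.46 (WKY/NCrL) and -1.49 (WKY/NTac) at 5 months, with an adjusted p of 0.667. Fasn, fatty acid synthase, had -2.11, 0.27 and -0.07 against -2.21 and -1.11 (adjusted p = 0.859). Both overlapped between the ages only through the WKY/NTac pool of 6 weeks. Adipocyte markers moved with them: Adipoq had -1.88, 0.24 and 0.40 at 6 weeks and -0.96 and -0.47 at 5 months, and 5 of 6 markers were lower within WKY/NCrL while 0 of 6 were lower within WKY/NTac. Whether fat tissue left on the vessels had a part in these values was not tested.

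Other single pools stood out in other lists. Immediate early genes had a list median of 0.94 in the 6-week WKY/NHsd pool, against -0.43 and -0.54 in the other pools of that age. Red blood cell markers were low in this pool (-0.81) and in the 5-month WKY/NCrL pool (-0.67), and lay between 0.13 and 0.49 in the rest. Without the 6-week WKY/NHsd pool 40 probes were called, and without the 6-week WKY/NCrL pool 24. Without the 5-month WKY/NCrL pool 22 were called, of which 17 were rises and 7 were among the 55; without the 5-month WKY/NTac pool 64 were called. Each fit without a 5-month pool leaves 1 pool at that age, which is then assumed to vary like the other groups.

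Maturation of SHR arteries went the same way for the probes called in WKY. All 55 had the same sign of change in SHR, against 57.4% of all probes, and the arrays of the strains are different although they share the reference and the estimate of spread. In SHR 31 of 55 were called (56.4%, against 1.03% of all probes), all in the same direction. Of the 10 rises 8 were called higher there (0.356% of all probes), and of the 45 falls 23 were called lower (0.675%). The probes were chosen for their change in WKY, which by itself favours a smaller change in SHR, so their sizes in the strains are not compared as a group.

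In SHR pools, with technical replicates averaged, Col1a1 stood at -0.37 (SHR/NCrL), 0.82 (SHR/NHsd) and 0.25 (SHR/SP) at 6 weeks and at -1.72 (SHR/NCrL) and -2.39 (SHR/SP) at 5 months, a change of -2.35 (adjusted p = 0.00440), and Pi15 changed by -1.89 (adjusted p = 0.000340). Of 8 fibrillar collagens 5 were called lower in SHR (0.675% of all probes). For mitosis genes 30 of 30 were below 0 in SHR (46.6% of all probes) with a median of -0.73, and 0 were called. Prc1 had 0.57, 0.33 and 0.56 in SHR at 6 weeks and -0.95 and -0.27 at 5 months, a change of -1.09 (adjusted p = 0.170), and Racgap1 changed by -0.41 (adjusted p = 0.522). Among chemokines Cxcl14 rose in SHR by 2.37 (adjusted p = 0.00590) and Ccl5 had a change of 1.09 (adjusted p = 0.201).

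The difference between the strains was itself tested as an interaction, and 0 of 30367 probes passed, while 1253 had an unadjusted p under 0.05. The values that follow are of probes chosen for their change in WKY and are given as a description. For Ccl5 the change was 1.70 ± 0.53 lower in SHR (unadjusted p = 0.00603), for Racgap1 the fall was 0.97 ± 0.30 smaller (unadjusted p = 0.00512), and for Prc1 it was 1.08 ± 0.51 smaller (unadjusted p = 0.0487). For Col1a1 the difference was 0.26 ± 0.51 and for Pi15 it was 0.11 ± 0.29. A p that misses the threshold does not show that the strains mature alike. Lipid synthesis genes were below 0 in 21 of 21 cases in SHR, with a median of -1.13 and 4 called lower (0.675% of all probes), beside adipocyte markers with a median of -1.49.

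**Figure D5:**
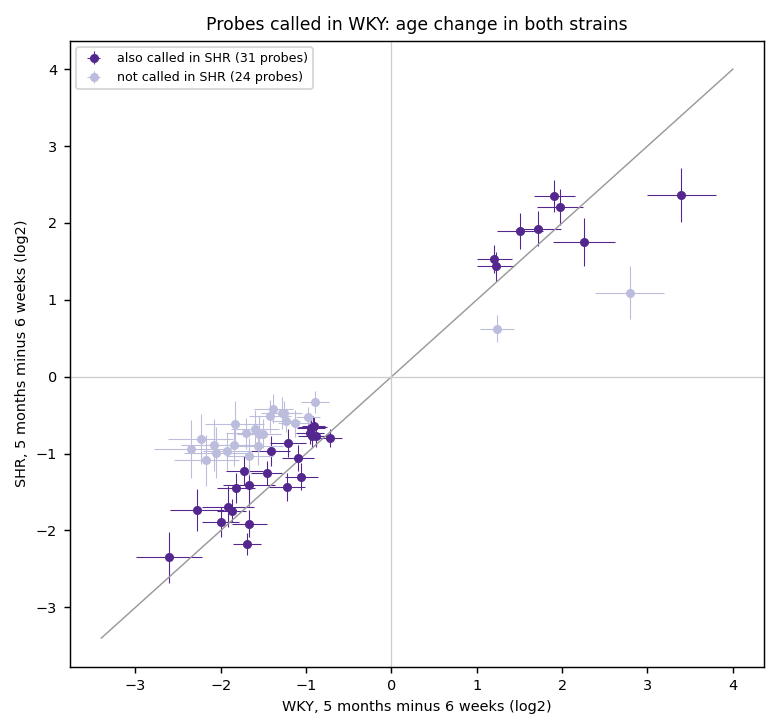
Difference between 5 months and 6 weeks (log2) in WKY (x axis) and in SHR (y axis) for the 55 probes called in WKY, with standard errors of the fit as bars and the line of equality. All points lie in the quadrants of equal sign, and 31 of them were called in SHR too; the probes were chosen by their WKY change.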

How the data were processed

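RNA of mesenteric arteries, pooled from several rats of a subline, was hybridised to 2-colour Agilent rat arrays, Cy3 for the test pool and Cy5 for a common reference, with no dye swap. The deposited log2 ratios were made by the authors from Feature Extraction 10.7.3.1 scans with normexp background correction (offset 15), loess within arrays and averaging of replicate probes in R 3.0.0 with limma. The deposited intensity values and flags of the scanner served for background calls and alternatives.

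Groups came from the labels. All 14 arrays that passed quality control entered 1 limma 3.58.1 fit (R 4.3.3) with 4 groups of strain and age, pool as a random block (correlation 0.444), empirical Bayes and Benjamini-Hochberg adjustment over 30367 probes, at an adjusted p under 0.05. The fit was tested on simulated data. Probes were named by accession through RefSeq (18355 probes, 60.4%), and a list gene stands by its brightest probe. P-values rest on the spread between arrays of a group, with arrays of the same pool treated as correlated. SHR pools that were hybridised again therefore added to the 10 residual degrees of freedom. With technical replicates averaged, so that each pool counted once, 15 probes were called. The number of pools limits the precision.

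Members and gene lists were chosen with earlier results of these data known. Described were, at most, the 12 largest rises and 20 largest falls called, and only 10 probes were called higher. Also described were up to 4 members of a list with a called gene or a median beyond 0.5. The 5 largest rises and falls gained without the 6-week WKY/NTac pool were described too. Fbn2, H19, Ccl2, Col5a1, Col11a1, Elovl6, Fasn, Adipoq, Acta2, Myh11, Nkg7, Cd3d and Cd4 were chosen after their values were seen. Some called genes are not reported here.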

Additional observations from a re-analysis of the deposited data

Results flagged for a closer look

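The WKY/NHsd array of 5 months failed quality control and entered no comparison. Its level lay on the 5-month side of the midpoint between the ages for 32 of the 55 called probes, against 42.4% of all probes. It did so for 29 of 45 falls (40.3% of all probes that were lower at 5 months) and for 3 of 10 rises (44.5% of all that were higher). On the same array the median log2 ratio of adipocyte markers was 1.92 and that of lipid synthesis genes was 1.76, above every passing WKY pool. Of its spots, 56.5% were well above background.

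Adipocyte markers moved in opposite directions in the sublines that have both ages. Their median difference between 5 months and 6 weeks was 1.21 within WKY/NTac and -0.67 within WKY/NCrL, with 1 pool at each age, and this difference was not tested.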

How the results depend on the processing

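No called gene reversed its direction under any setting run. Leaving out 1 pool or blocking on subline could not reverse it, since the pools of the ages did not overlap. The count of 55 called probes depended on the processing. It was 87 with a normexp offset of 50, 29 with the scanner's processed signals, 15 with technical replicates averaged, 13 with the failed arrays included and 0 with only WKY arrays in the fit, where 1689 probes had an unadjusted p under 0.05. With the replicate block it was 10, and with the subline block 1. By the WKY labels, replicate numbers did not pair sublines. The correlation of deviations from the age means was 0.0589 for number 1 and 0.168 for number 3. It was 0.121 for the WKY/NCrL pools and -0.0589 for the WKY/NTac pools. With 2 pools at 5 months their deviations mirror each other, so these correlations cannot tell which pools are paired. Leaving out 1 pool gave 22 (without the 5-month WKY/NCrL pool, 77.3% of calls higher against 18.2% with all pools) to 114 calls (without the 6-week WKY/NTac pool), and 24 without the 6-week WKY/NCrL pool (33.3% higher). Of the calls, 10.0% were higher with the replicate block and 7.69% with the failed arrays included. The strain difference had 0 calls, and 0 to 4 with 1 pool left out: 4 without the 5-month WKY/NCrL pool and 2 without the 6-week WKY/NCrL pool. The cause was not tested. Over the settings, the results for called genes stayed on their side of the threshold 406 times and lost the call 278 times. Low signals limit Mup4 to a bound.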
